A study of Rattus norvegicus with 6 samples.

Results

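The 10 mature miRNAs described here are both arms of 5 hairpins, miR-770, miR-673, miR-493, miR-337 and miR-540, out of 649 miRNAs counted in rat cortical neurons. They were chosen by name, and all 10 had a row in every count file. The hairpins lie on the Meg3 side of the imprinted Dlk1-Dio3 locus. That choice was made with levels and fold changes of the BDNF comparison in these libraries already known, among them a higher miR-673-5p. The BDNF differences below are therefore a description of the members and not a test.

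The neurons were dissociated from the cortex of embryonic day 18 Sprague-Dawley rats of both sexes and grown for 7 days in vitro (DIV) per the sample labels, whereas the study's text gives a day less for the sequenced cultures. Fluorodeoxyuridine and uridine were added to the cortical cultures to stop non-neuronal cells from dividing. BDNF, a secreted neurotrophin that promotes dendrite growth, was given at 100 ng/ml for 20 min to 3 samples, and 3 control samples received the vehicle, 0.1% BSA, for the same time. The samples of each condition are numbered 1 to 3 and are described by the methods as biological replicates. Total counts ranged from 10374120 to 12533029 per library. Of the 4 neuronal marker miRNAs, miR-9a-5p stood at 249572 to 331060 RPM (reads of a miRNA per 1000000 counted reads) and miR-128-3p at 75697 to 88885 RPM. MiR-124-3p had 4785 to 5879 RPM. MiR-138-5p had 271, 322 and 424 RPM in control replicates 1 to 3 and 228, 257 and 338 RPM in the BDNF replicates, lower in the BDNF sample of each number. In edgeR 0 of 336 miRNAs had an adjusted P-value below 0.05, and the study's RT-PCR found no significant change of miR-138-5p with BDNF. The 4 glial markers summed to 5617 to 7331 RPM in control and 5652 to 7529 RPM in BDNF samples, nearly all of it miR-21-5p. Of the 5 vascular and blood markers 4 had a row, and these summed to between 122 and 186 RPM. In bulk RNA, fewer cells of a type and less of a miRNA per cell cannot be told apart.

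Imprinted genes are expressed from the chromosome of a single parent. In the Dlk1-Dio3 locus, the protein-coding genes Dlk1, Rtl1 and Dio3 are expressed from the paternal chromosome. The long non-coding RNAs, Meg3 first among them, and a very large group of miRNAs are expressed from the maternal one. Many of these miRNAs are abundant in brain, and miR-134 of the same locus is known for its role in dendrites. Drosha cuts each hairpin from a longer transcript, Dicer removes the loop, and the 5p or 3p arm is loaded into Argonaute as the guide, while the other arm is mostly degraded. The arm count ratio is therefore read as a guide to which strand was retained. The arms differ in sequence, so differences in ligation efficiency limit this reading.

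The sequences are shown first because the arms of a hairpin share a precursor but not a seed, the bases (2 to 8) that pair with target mRNAs. All 10 names matched a mature sequence in RefSeq (assembly GRCr8). Written 5′ to 3′ with the seed in capitals, and with rno for rat, they were:
rno-miR-770-5p: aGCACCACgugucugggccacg
rno-miR-770-3p: gUGGGCCUgacguggag
rno-miR-673-5p: cUCACAGCuccgguccuuggag
rno-miR-673-3p: uCCGGGACugaguucugugcac
rno-miR-493-5p: uUGUACAUgguaggcuuucauu
rno-miR-493-3p: uGAAGGUCuacugugugccag
rno-miR-337-5p: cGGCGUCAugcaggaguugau
rno-miR-337-3p: uUCAGCUCcuauaugaugccuuu
rno-miR-540-5p: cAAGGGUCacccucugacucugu
rno-miR-540-3p: aGGUCAGAggucgauccugggc

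The 10 seeds were all different. None of them was the seed of any other of the 693 rat mature miRNAs in the RefSeq table, so each arm stood alone among these. Of the 649 miRNAs counted, 583 matched that table by name, and the others were not compared under their names. The annotated miR-770-3p is short, with 17 bases, while the median of all mature miRNAs was 22 bases and only 7 had 17 or fewer. Reads of at least 15 bases were retained by the authors, so reads of this length could be counted. A U at the first base was found in 4 of the 10 members and in 36.2% of all mature miRNAs.

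The 5 hairpins are on the plus strand of chromosome 6 in GRCr8. Mir770, at chr6:134298084-134298159, lies inside the annotated span of Meg3 (chr6:134274056-134306249). Mir673, at chr6:134306500-134306582, starts 251 bp after the annotated end of Meg3. Mir493 follows at chr6:134314731-134314814, Mir337 at chr6:134321142-134321238 and Mir540 at chr6:134321424-134321507. Only 185 bp separate Mir337 from Mir540, and both lie less than 4 kb before Rtl1 (chr6:134325231-134335780). Their place inside or outside an exon was not examined, because the gene table used here gives spans only.

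In control neurons the members were of moderate to low abundance, and together they took 513 to 649 RPM. A miRNA read covers the whole molecule, so levels need no correction for length, but ligation efficiency differs between sequences and limits the comparison of levels. MiR-337-5p was the highest member with 188 ± 39 RPM (SD, n = 3), rank 151 of all 649 miRNAs. MiR-770-3p followed with 124 ± 15 RPM (SD, n = 3) and miR-493-5p with 103 ± 10 RPM (SD, n = 3). The ranges of miR-770-3p and miR-493-5p overlapped, so their order is not resolved, whereas all miR-337-5p values lay above both.

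A middle group held 4 arms from all hairpins but miR-337. MiR-770-5p had 37.2 ± 14.9 RPM, miR-540-3p 36.9 ± 11.9 RPM and miR-673-3p 35.0 ± 3.1 RPM (SD, n = 3 each), with overlapping ranges. MiR-493-3p had a lower mean of 28.7 ± 5.0 RPM (SD, n = 3). Its range of 23.1 to 32.7 RPM overlapped those of miR-770-5p and miR-540-3p, so its place below these 2 is not resolved. The remaining 3 arms were the rarer partners of their hairpins. MiR-673-5p had 8.78 ± 0.94 RPM, miR-337-3p 5.51 ± 0.66 RPM and miR-540-5p 1.74 ± 0.58 RPM (SD, n = 3 each), and the ranges of these 3 did not overlap. From the top to the bottom of the list, levels thus differed 108-fold within a stretch of genome of less than 24 kb.

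**Figure D1:**
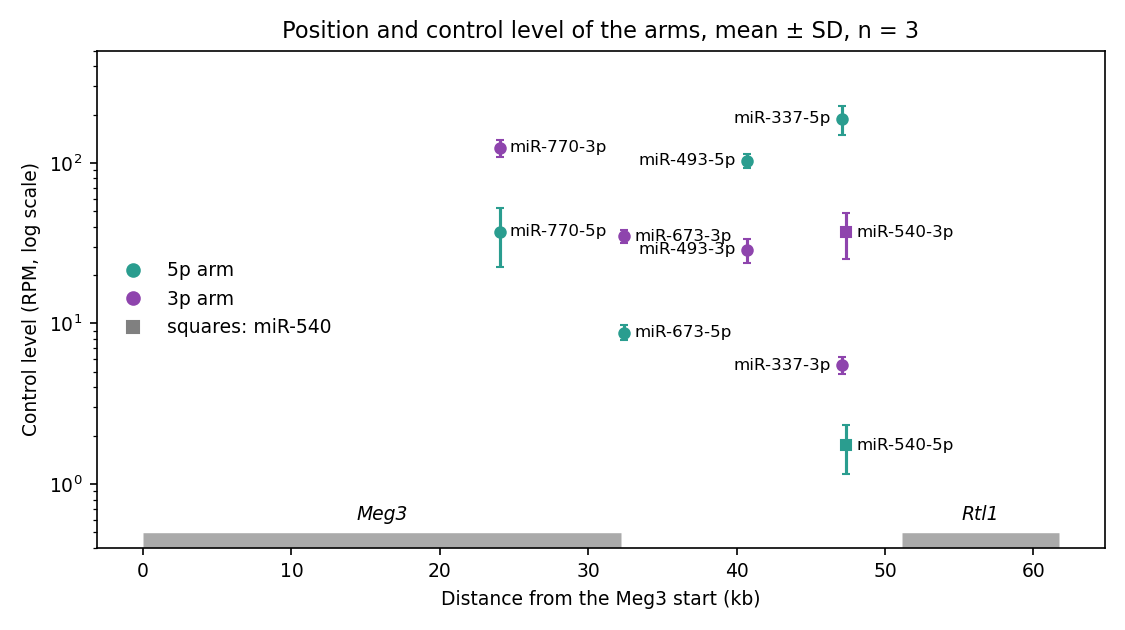
Control level of each arm in RPM on a log axis (mean ± SD, n = 3) against the distance of its hairpin from the annotated Meg3 start in kb. Teal marks the 5p arm and purple the 3p arm, squares mark miR-540, and grey bars show the annotated spans of Meg3 and Rtl1. MiR-337-5p at 188 RPM and miR-540-5p at 1.74 RPM come from hairpins that lie next to each other.

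The arm with more reads differed between hairpins. The 3p arm prevailed for miR-770, miR-673 and miR-540, and the 5p arm for miR-493 and miR-337, in all 6 samples. The bias was steepest for miR-337, whose 5p arm made up 97.1 ± 0.2% of the hairpin's control reads (SD, n = 3), a 33.6-fold excess over the 3p arm. For miR-540 the 3p arm made up 95.1 ± 2.5% (SD, n = 3). These adjacent hairpins, 185 bp apart, thus had most of their reads on opposite arms. The other 3 hairpins were less one-sided. The prevailing arm made up 80.0 ± 0.5% for miR-673, 78.3 ± 2.5% for miR-493 and 77.2 ± 7.1% for miR-770 (SD, n = 3 each). Across the 83 hairpins of the whole dataset with both arms above the 10 RPM filter, the 5p arm prevailed in 47 and the 3p arm in 36.

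The hairpin of miR-337 shows how the arms are placed. With the annotated 5p and 3p arms in capitals and the loop between them in lower case, the RefSeq sequence of Mir337 reads:
Mir337: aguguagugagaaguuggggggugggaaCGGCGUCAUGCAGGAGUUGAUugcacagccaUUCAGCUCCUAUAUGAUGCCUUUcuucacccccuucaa

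**Figure D2:**
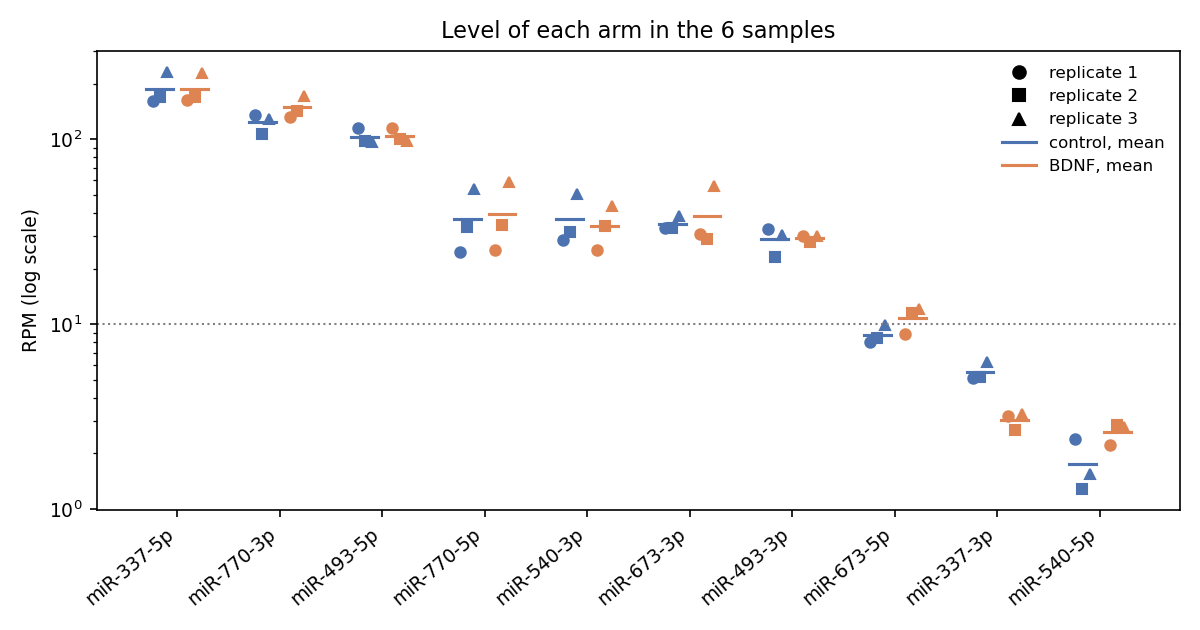
RPM of each of the 10 arms on a log axis, ordered by control level, with control samples in blue and BDNF samples in orange. Shapes mark replicate numbers, short lines the group means and the dotted line 10 RPM, and miR-337-3p is the only arm whose 3 BDNF values all lie below its 3 control values.

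MiR-337-3p was lower in BDNF samples, while the 5p arm of the same hairpin hardly differed between conditions. The control libraries held 53, 65 and 65 reads of miR-337-3p and the BDNF libraries 37, 30 and 39, in the order of replicates 1 to 3. This corresponded to 5.08, 5.19 and 6.27 RPM in control and 3.17, 2.66 and 3.28 RPM in BDNF samples. The groups did not overlap, and every BDNF value was lower than every control value. A position below all control samples was found for 29 of the 649 miRNAs (4.47%). The BDNF/control ratio of samples with the same number was 0.62, 0.51 and 0.52, with a mean of 0.55 ± 0.06 (SD, n = 3).

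With reads of a condition pooled, miR-337-3p stood at 5.49 RPM in control (exact 95% binomial interval 4.72 to 6.34) and at 3.04 RPM in BDNF samples (2.49 to 3.68). The intervals cover counting error only. MiR-337-3p is below the 10 RPM filter of the methods, so its log2 fold change of -0.83 (standard error 0.19) comes from the edgeR fit without a filter. That quasi-likelihood fit put 0 of 649 miRNAs (0%) under an adjusted P-value of 0.05. MiR-337-3p was among the 15 (2.31%) under 0.05 before adjustment. With the replicate number as a block, its log2 fold change was again -0.83 (standard error 0.20). It was then among 20 of 649 miRNAs (3.08%) with an adjusted P-value below 0.05 in edgeR, and 88 (13.6%) passed before adjustment. That call depended on the filter, because with miRNAs of at least 1 RPM and the same block 0 of 467 (0%) had an adjusted P-value below 0.05, and 70 (15%) an unadjusted one. Among the 126 miRNAs with a mean of 1 to 10 RPM, a range set after the values were seen, miR-337-3p had the lowest log2 fold change, and the median size was 0.20.

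MiR-337-5p, the guide-like arm by abundance, was counted 1683 to 2415 times in control and 1898 to 2725 times in BDNF samples. Its level was 161, 171 and 233 RPM in control replicates 1 to 3 and 162, 171 and 229 RPM in the BDNF replicates. Both conditions covered the same range, and the same-number ratios were 1.01, 1.00 and 0.98. The log2 fold change was 0.01 (standard error 0.15).

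The log2 5p/3p ratio of miR-337 was higher with BDNF in all 3 pairs, going from 4.98, 5.03 and 5.20 in control to 5.66, 5.98 and 6.11 in BDNF samples. The groups did not overlap, as for 17 of 182 hairpins with both arms counted in every sample (9.34%). The change was 0.85 (standard error 0.24) in limma. Before adjustment 5 of the 182 hairpins (2.75%), miR-337 among them, were under a P-value of 0.05, and after adjustment 0 were (0%). With the replicate block the counts were 19 (10.4%), miR-337 and miR-540 among them, and 0. In the same fit 10 hairpins, miR-337 included, had a change at least this large in either direction. The 5p share of the hairpin's reads was 97.1 ± 0.2% in control and 98.4 ± 0.3% in BDNF samples (SD, n = 3 each), and the sum of both arms had same-number ratios of 1.00, 0.99 and 0.97.

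MiR-540-5p, the rarer arm of the neighbouring hairpin, pointed the other way but rested on fewer reads. The control libraries held 25, 16 and 16 reads of it and the BDNF libraries 26, 32 and 33, or 2.39, 1.28 and 1.54 against 2.23, 2.84 and 2.77 RPM. Control replicate 1 was above BDNF replicate 1, so the groups overlapped. The pooled levels were 1.71 RPM in control (exact 95% binomial interval 1.29 to 2.21) and 2.61 RPM in BDNF samples (2.10 to 3.20). The log2 fold change without a filter was 0.62 (standard error 0.29), and of the pair of members under the filter only miR-337-3p had passed before adjustment. With the replicate block miR-540-5p did so too, but not with the block and a filter of 1 RPM.

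The major arm, miR-540-3p, differed little between conditions, with 28.5, 31.7 and 50.5 RPM in control replicates 1 to 3 and 25.2, 33.9 and 43.5 RPM in the BDNF replicates. The ranges overlapped widely, with a log2 fold change of -0.09 (standard error 0.23). The log2 5p/3p ratio of miR-540 moved from -4.38 ± 0.74 in control to -3.66 ± 0.26 in BDNF samples (SD, n = 3 each). The pairs changed by 0.07, 1.03 and 1.04, so replicates 2 and 3 moved and replicate 1 hardly did. The change of 0.72 (standard error 0.38) was exceeded or equalled in size by 15 of the 182 hairpins, itself included.

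**Figure D3:**
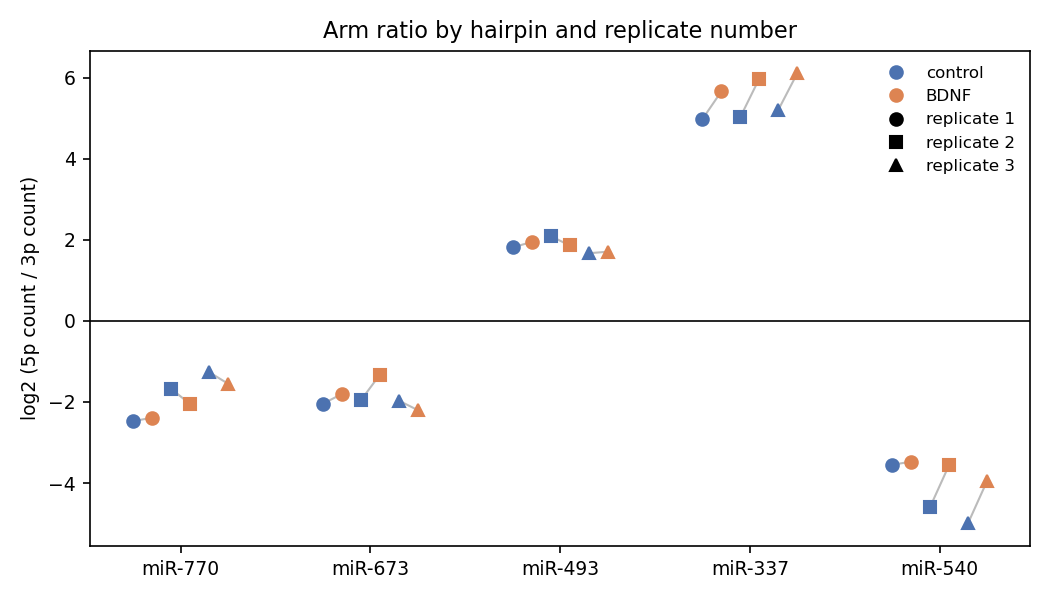
Log2 ratio of 5p to 3p counts for the 5 hairpins, with control in blue, BDNF in orange, shapes for the replicate number and grey lines joining samples with the same number. Values above 0 mean more 5p reads, and miR-337 is the only hairpin in which all BDNF values, 5.66 to 6.11, lie above all control values, 4.98 to 5.20.

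Of the 10 members, 8 had a mean of at least 10 RPM in a condition and were part of the edgeR fit over 336 miRNAs. MiR-673-5p passed this filter only through the BDNF samples, where its mean was 10.8 RPM against 8.78 RPM in control. After adjustment 0 of the 336 (0%) reached a P-value of 0.05, with edgeR, with DESeq2 or with the replicate block. An unadjusted P-value below 0.05 was found for 10 miRNAs (2.98%) with edgeR and 12 (3.57%) with DESeq2. Among the 8 members it was found for miR-673-5p alone with edgeR and for miR-770-3p alone with DESeq2. MiR-673-5p had passed the filter through its higher BDNF values, and in edgeR without a filter or block it was no longer among them. With the replicate block the count rose to 69 of 336 (20.5%) and covered both of these members, and with library sizes alone it was 6 (1.79%) and covered no member. Both were also among the 88 of 649 (13.6%) with the block and no filter. The 70 of 467 (15%) with the block and a filter of 1 RPM held them too. The median log2 fold change was 0.08 over the 8 members, miR-673-5p included, and -0.00 over all 336, and the median size over all 336 was 0.09. Without a filter the medians were 0.08 over the 10 members and -0.01 over all 649.

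MiR-673-5p, the rarer arm of miR-673, rested on 84, 106 and 102 reads in control and on 103, 129 and 144 reads in BDNF libraries. These counts gave 8.05, 8.46 and 9.83 RPM in control and 8.82, 11.4 and 12.1 RPM in BDNF samples. BDNF replicate 1 fell inside the control range, so the groups overlapped in RPM. After TMM normalization they separated, at 8.10 to 9.10 against 9.50 to 11.8 normalized RPM. Such a position above all control samples was found for 12 of the 336 miRNAs (3.57%), a set that miR-673-5p entered through its BDNF mean. The same-number RPM ratios were 1.10, 1.35 and 1.23. The log2 fold change was 0.32 (standard error 0.13), and with the replicate block 0.31 (standard error 0.11).

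The more abundant arm, miR-673-3p, had 33.3, 33.0 and 38.6 RPM in control and 30.9, 28.8 and 55.8 RPM in BDNF replicates 1 to 3. BDNF replicate 3 was the highest of the 6 samples and the other BDNF samples were the lowest, so the spread within BDNF samples exceeded the difference between the groups. The log2 fold change was 0.14 (standard error 0.22), and it was -0.14 without BDNF replicate 3. The arm ratio of miR-673 changed by 0.24, 0.63 and -0.24 in the 3 pairs, without a common direction.

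MiR-770-3p, the prevailing arm of the hairpin within Meg3, rested on 1419, 1347 and 1335 reads in control and on 1552, 1615 and 2041 reads in BDNF libraries. Its level was 135.9, 107 and 129 RPM in control replicates 1 to 3 and 133, 143 and 171 RPM in the BDNF replicates. BDNF replicates 2 and 3 were above all control samples, and BDNF replicate 1 was below control replicate 1. In normalized RPM the groups were separate, at 113 to 137 in control and 143 to 158 in BDNF samples. As background, all BDNF values lay above all control values in 12 of the 336 miRNAs (3.57%). The log2 fold change was 0.28 (standard error 0.12), and with the replicate block 0.29 (standard error 0.09). Its partner miR-770-5p had 24.4, 33.7 and 53.6 RPM in control and 25.3, 34.5 and 58.6 RPM in BDNF replicates 1 to 3. MiR-770-5p thus differed far more between replicate numbers than between conditions. The same-number ratios were 1.04, 1.02 and 1.09, and the log2 fold change was 0.09 (standard error 0.33 without and 0.08 with the replicate block).

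The miR-493 arms varied little with BDNF. MiR-493-5p stood at 115, 98.6 and 96.9 RPM in control replicates 1 to 3 and at 116, 101 and 98.2 RPM in the BDNF replicates. Each BDNF value was within a few percent of the control value with the same number, at ratios of 1.01, 1.02 and 1.01. The log2 fold change was 0.05 (standard error 0.17). MiR-493-3p had 32.7, 23.1 and 30.5 RPM in control and 29.96, 27.8 and 30.1 RPM in BDNF samples, with all BDNF values inside the control range. Its log2 fold change was 0.06 (standard error 0.15), and the arm ratio of the hairpin changed by -0.02 (standard error 0.18). The arm ratios of miR-493, miR-673 and miR-770 all overlapped between the groups, while 5 of the 83 hairpins with both arms above the filter (6.02%) did not. In the same set, 3 (3.61%) were under a P-value of 0.05 before adjustment in limma and 0 (0%) after it. MiR-493, miR-673 and miR-770 were not among the 3, nor among the 10 (12%) found with the replicate block.

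**Figure D4:**
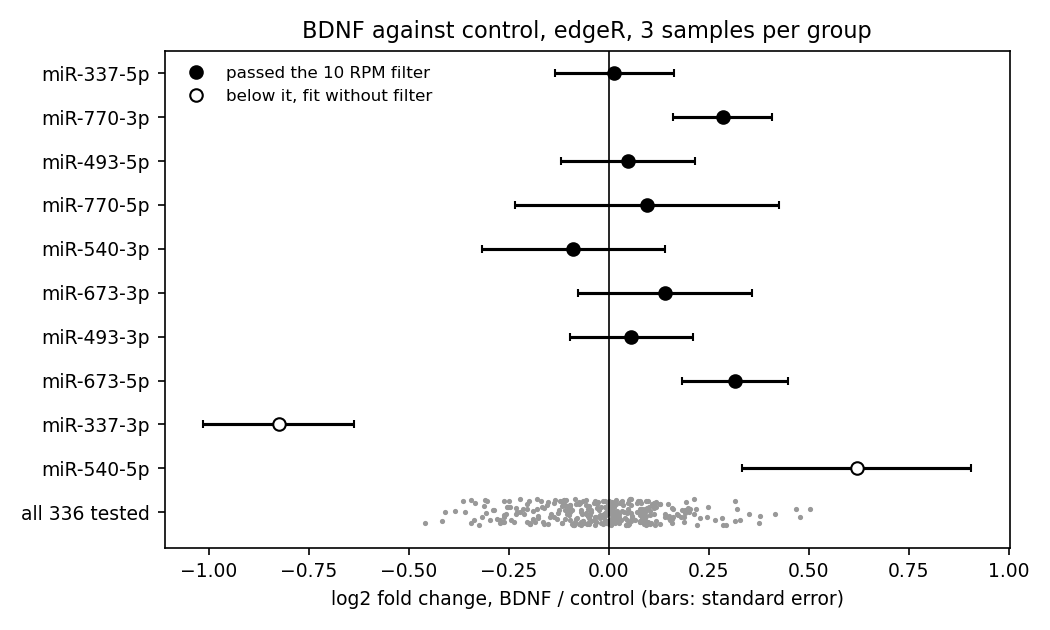
Log2 fold change (BDNF/control) of the 10 arms with standard errors, for 3 samples per group. Filled points passed the 10 RPM filter, open points are from the fit without a filter, and the lowest row shows all 336 miRNAs tested. MiR-337-3p at -0.83 and miR-540-5p at 0.62 are the lowest in reads and the farthest from 0.

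In most members the range over replicate numbers was larger than the difference between conditions, though these are unlike measures. The level of miR-770-5p in replicate 3 was 2.00-fold that in replicate 1 when both conditions were averaged on the log2 scale, a spread that ranked 17 of 336 miRNAs. In the same hairpin miR-770-3p differed by only 1.09-fold between replicate numbers, rank 290. The arm ratio of miR-770 accordingly ran from -2.47 to -1.26 over the control samples and from -2.39 to -1.55 over the BDNF samples. MiR-540-3p differed by 1.55-fold, miR-673-3p by 1.34-fold and miR-337-5p by 1.26-fold, and all of these were highest in replicate 3. For miR-673-3p this came mainly from BDNF replicate 3, at 51.4 normalized RPM against 29.7 to 35.7 in the other samples. Replicate 3 was highest in 4 of the 8 members and in 42.6% of all 336 miRNAs. MiR-493-5p went the other way and was highest in replicate 1, by 1.33-fold over replicate 3.

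The spread between replicate numbers was larger than the BDNF difference in 6 of the 8 members, all but miR-673-5p and miR-770-3p. It was also larger in 88.1% of all 336 miRNAs, so the members were not unlike the rest. The spread is a range over 3 means, and the BDNF difference lies between 2 means. A range over more means tends to be larger even without a replicate effect, so these counts do not measure one. The glial marker miR-21-5p moved with the replicate number as well, at 5571 and 5602 RPM in the replicate 3 samples and at 6615 to 7480 RPM in the other 4. Of the rarer glial markers, miR-219a-5p and miR-146a-5p did not share this pattern. MiR-219a-5p had 23.6 and 26.1 RPM in replicate 3 and 23.3 to 25.5 RPM in the others, and miR-146a-5p was lowest in replicate 2. MiR-338-3p shared it in control only, where replicate 3 was the lowest of all samples at 6.07 RPM. Its BDNF replicate 3, at 9.41 RPM, lay above BDNF replicate 2, at 8.33 RPM. The part of glial cells in the differences between replicates was not tested.

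**Figure D5:**
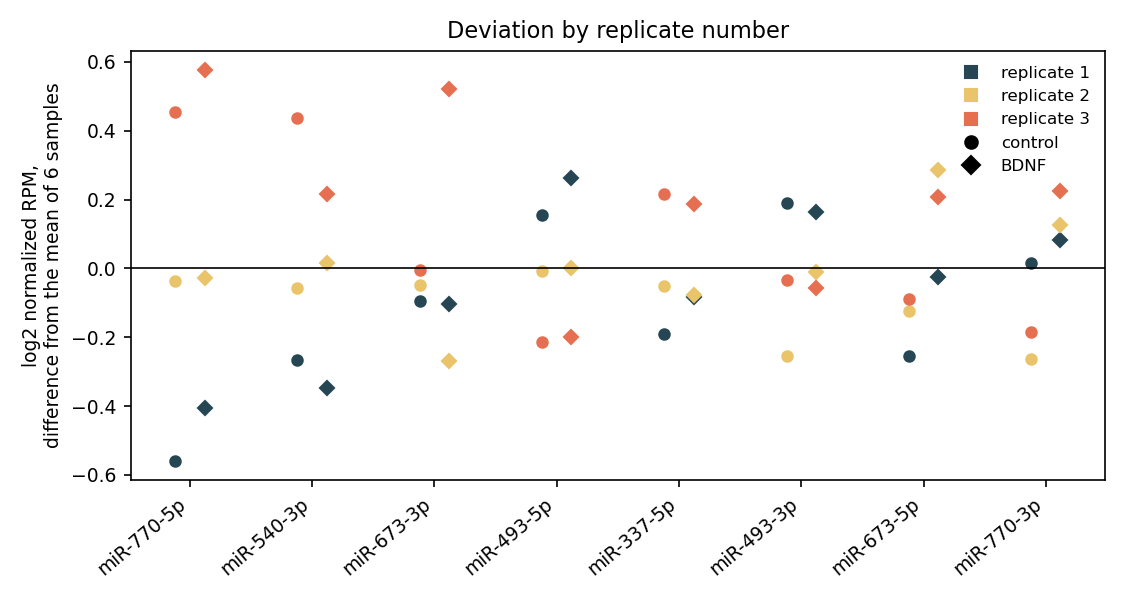
Log2 normalized RPM of the 8 members above the filter, as the difference from the mean of all 6 samples, ordered by the spread between replicate numbers. Colours mark the replicate number, circles control and diamonds BDNF, and for miR-770-5p both replicate 3 samples lie above and both replicate 1 samples below all others.

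The profile of each hairpin's major arm over the 6 samples was compared with those of all other tested miRNAs, by the root mean square difference of centred log2 normalized RPM. Closest to miR-337-5p were miR-298-5p (0.04) and miR-434-3p (0.04), the latter from the neighbouring anti-Rtl1 group, where the median over all miRNAs was 0.22. MiR-380-5p of the miR-379 to miR-410 cluster (0.06) and miR-30a-5p (0.06) were closest to miR-493-5p, with a median of 0.23. The nearest profiles were less close for miR-673-3p, where miR-330-5p differed by 0.12 and miR-434-5p by 0.13. For miR-770-3p they were miR-342-5p (0.07) and miR-17-2-3p (0.08), and for miR-540-3p miR-532-3p (0.08) and miR-346 (0.09). As background, the 336 tested miRNAs held 9 of the anti-Rtl1 list, 41 of the cluster and 4 others of the locus, besides the members. These are descriptions over 6 samples that include the differences between replicates, and shared regulation within the locus was not tested.

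In sum, the rest of the imprinted locus took far more RPM than the members, and it had no adjusted call in the edgeR fit. The lists differ in size, miR-127-3p alone had a control mean of 15010 RPM, and not every arm was abundant. The 9 listed arms of the anti-Rtl1 miRNAs, which lie opposite the coding strand of Rtl1, summed to 23768 ± 2018 RPM in control samples (SD, n = 3), against 570 ± 71 RPM for the 10 members. The 65 listed miRNAs of the miR-379 to miR-410 cluster summed to 17630 ± 1253 RPM (SD, n = 3). Of these, 9 anti-Rtl1 and 41 cluster miRNAs were tested in edgeR, and after adjustment 0 passed. Before adjustment 1 passed, a cluster member that was lower in BDNF samples, beside 10 of all 336 miRNAs (2.98%). With the replicate block, 3 cluster miRNAs were higher and 5 lower at an unadjusted P-value below 0.05 in edgeR. Of the anti-Rtl1 list, 1 was higher and 1 lower, and over all 336 the block gave 69 (20.5%).

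The median log2 fold change was 0.09 for the anti-Rtl1 list and -0.04 for the cluster. Of the anti-Rtl1 list, miR-127-3p had 15010 ± 1366 RPM in control and 15762 ± 1811 RPM in BDNF samples (SD, n = 3 each). MiR-434-3p and miR-127-5p followed, with log2 fold changes of 0.02 (standard error 0.15) and -0.00 (standard error 0.13). The most abundant cluster members, miR-323-3p, miR-379-5p and miR-300-3p, had log2 fold changes of -0.03, -0.03 and 0.16, with standard errors of 0.11 to 0.13. Of 6 other arms of the locus 4 were tested, with a median of 0.09, and without the block 0 passed before or after adjustment. Among them were miR-341 with 1597 ± 310 RPM and miR-370-3p with 394 ± 88 RPM in control (SD, n = 3 each). MiR-665, encoded next to miR-540 on the same strand (chr6:134321679-134321772), was much rarer, with 14.8, 12.05 and 11.3 RPM in control replicates 1 to 3 and 15.4, 14.5 and 16.97 RPM in the BDNF replicates. BDNF replicate 2 fell below control replicate 1, so the groups overlapped, and the difference on the log2 scale was 0.31 (standard error 0.16). With the replicate block, miR-665 had an unadjusted P-value below 0.05 in edgeR. So had 69 of all 336 miRNAs (20.5%), miR-673-5p and miR-770-3p among them.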

How the data were processed

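Small RNA libraries of 3 control and 3 BDNF samples were analysed. Adapter trimming, a quality filter and removal of reads shorter than 15 bases were done by the authors, who then mapped what remained to rat miRBase mature miRNAs with Miraligner at default settings. The deposited values are raw counts per mature miRNA. Reads that match several miRNAs and tool versions are not described in the sources used here. Counts per isomiR were not analysed here.

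RPM were computed from column sums. Counts were fitted in edgeR 4.0.16 (R 4.3.3) with TMM factors (0.928 to 1.085) and the quasi-likelihood test, over miRNAs whose mean reached 10 RPM in either condition, corresponding to 104 to 125 reads. P-values were Benjamini-Hochberg adjusted over all miRNAs in a fit. Standard errors are the log2 fold change divided by the square root of F. Arm ratios (pseudocount 0.5) were fitted in limma 3.58.1 with a variance trend. DESeq2 1.42.0 was an alternative. The fits were tested on simulated data.

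Condition and replicate number came from the sample labels. Deviations from the group mean correlated across miRNAs at 0.80, 0.48 and 0.89 for the 3 same-number pairs, so the numbers were taken to pair the samples, and a replicate block was an alternative. No 2 libraries of a condition agreed within sampling noise (chi-square per degree of freedom of at least 120). An exact permutation test of 3 against 3 cannot give a P-value below 0.1, and none is reported. The members, the gene lists and the naming rule were chosen with earlier results of these data known. Named were all members, the 3 most abundant miRNAs of each list, the 2 nearest profiles of each major arm and the marker miRNAs. Mir540 hairpin sequence and exon structure were not used here.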

Additional observations from a re-analysis of the deposited data

How the results depend on the processing

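Over all alternatives, the log2 fold change of miR-337-3p stayed between -0.88 and -0.73, and that of miR-540-5p between 0.47 and 0.92. MiR-673-5p ranged from 0.25 to 0.40, miR-770-3p from 0.23 to 0.40, the arm ratio change of miR-337 from 0.75 to 0.97 and that of miR-540 from 0.41 to 1.13. These 6 kept their sign under every alternative run, but they are not 6 separate results. The arm ratio changes of miR-337 and miR-540 largely repeat miR-337-3p and miR-540-5p, because the partner arms differed little between conditions. The sign of the other members and of the arm ratios of miR-493, miR-673 and miR-770 changed in 18 of their 93 values, in all but 1 of them when a single library was left out, so no direction is given for them. The exception was miR-337-5p with library sizes alone. The unadjusted P-value of miR-337-3p, without a filter, stayed below 0.05 whichever library was left out. These runs share most of their libraries, and the members were chosen with earlier results known, so this is a description and not separate support. With all libraries and neither filter nor block, its adjusted P-value was not below 0.05 in edgeR. With a library left out, the unadjusted P-value of miR-673-5p was below 0.05 only without BDNF replicate 1 (1 of 6). With all libraries, it was not below 0.05 in DESeq2 or with library sizes alone. Without a filter or with a filter of 1 RPM, it was below 0.05 only with the replicate block.

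The number of miRNAs with an unadjusted P-value below 0.05 was 10, with 5 higher and 5 lower. It was 6 with library sizes alone (2 higher and 4 lower), and ranged from 3 to 32 when single libraries were left out. It was 32 without control replicate 1, 3 without control replicate 2, 6 without control replicate 3 and 5 without BDNF replicate 2. The replicate block gave 69, the block without a filter 88 and the block with a filter of 1 RPM 70. The block without a filter gave 20 adjusted calls, 1 of them a member, miR-337-3p, and 17 of the 20 had a mean of at least 10 RPM. The block changed no other adjusted call. The mean same-number ratio of the summed arms of miR-337 was 0.98 in RPM and 1.00 in TMM-normalized RPM. The filter of 1 RPM and the fits that combine a missing filter with another choice were chosen after seeing the data. Depth limits miR-337-3p and miR-540-5p most, with 16 to 65 reads per library. The cause of these shifts was not tested.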

Other observations

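RefSeq places a hairpin on the minus strand over Mir337, Mir3544 (chr6:134321154-134321241). Its mature miRNA had no row under that name in the files used here.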
